A study of Mus musculus with 24 samples.

Results

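The regions described here are the coding m6A peaks of untreated WT myeloid cells. They are the 4249 of 12181 WT Ctrl consensus peaks (34.9%) whose summit lay inside coding sequence, and they fell in 2521 genes. They were chosen by the deposited peak lists themselves. A peak had to be present in all 3 WT Ctrl IP libraries on the same strand, and the summit was taken from the library with the highest fold enrichment. That summit had to lie in the coding sequence of a protein-coding transcript, in no 3′ UTR, and more than 200 genomic bases from every stop codon. Of the other consensus peaks, 2755 lay near a stop codon, 1871 in introns, 1689 farther out in 3′ UTRs, 487 in 5′ UTRs, 366 in other exons and 764 elsewhere. Stop codons of every transcript with a coding sequence counted, and 1203 of the near-stop peaks had their summit in coding sequence and in no 3′ UTR. Comparisons of coding with near-stop peaks therefore set peaks apart by distance to a stop codon, and both classes hold summits in coding sequence. Nearest to that limit on its outer side were the peaks of Rtl8b (folds of 4.09, 2.24 and 3.27) and Fmc1 (6.74, 5.12 and 5.04), each 200 bases from a stop codon. The coding peaks next to it lay 1 base farther away, in Plcb2 (2.27, 2.27 and 2.55) and Dnm1l (2.43, 3.45 and 2.79). The weakest coding peak lay in Basp1, with folds of 1.18, 1.21 and 1.58 in the 3 libraries.

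N6-methyladenosine (m6A) is a methyl mark that a methyltransferase complex places on adenosines of mRNA, mostly in the sequence DRACH (D is A, G or T, R is A or G, H is A, C or T), of which GGACT is the best known form. It is known to be densest around stop codons and in long internal exons. Reader proteins bind the mark, and YTHDF2 is the reader that promotes decay of the bound mRNA. Marks inside coding sequence lie where ribosomes pass.

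The study sorted CD11b+ myeloid cells from MC38 tumours, a mouse colon carcinoma line grown in C57BL/6 mice. WT mice carried floxed Ythdf2 alleles without Cre, and Ythdf2 cKO mice carried them with Lyz-Cre, which acts in myeloid cells and sits in the Lyz2 gene. Mice were 8 to 10 weeks old and of both sexes, and cells of several mice were pooled for each replicate. Tumours were untreated (Ctrl) or irradiated once with 20 Gy and collected after 3 days (IR), and each of the 4 groups had 3 Input libraries and 3 IP libraries, in which fragments had been bound by an m6A antibody. The study called its replicates technical in one place and biological in another, so p-values measure the spread between these libraries, which may be technical.

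Input libraries held 65180075 to 83661576 gene counts and IP libraries 68846321 to 86421888, with 13470 to 17608 peaks for each IP library. All 10 myeloid markers had at least 1 CPM (counts scaled to the same library total) in every Input. The 4 neutrophil markers summed to a mean of 1575 CPM in WT Ctrl Inputs, 672 in cKO Ctrl, 335 in WT IR and 304 in cKO IR. The 4 T cell markers summed to at most 1.42 CPM in any library, the 4 B cell markers to 1.15, the 3 NK markers to 1.30 and the 4 fibroblast markers to 0.66. The 5 epithelial and tumour markers summed to 5.57 to 8.05 CPM in Inputs and to 87.7 to 129 in IP libraries, and 3 of the 5 stayed under 1 CPM in all. The 3 endothelial markers reached 3.72 CPM in Inputs and 13.1 in IP libraries. The part of other cells in the results was not tested, and in bulk RNA fewer cells of a type and less RNA per cell cannot be told apart.

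Lyz2 (lysozyme M, the gene that holds the Cre) checked the labels. It stood at 20267, 20722 and 20699 CPM in WT Ctrl Inputs and at 306, 298 and 301 CPM in cKO Ctrl Inputs. IP libraries of the Ctrl groups showed the same order, with 17662, 17336 and 16938 CPM in WT and 96.2, 101.3 and 96.8 CPM in cKO. In IR the IP libraries went against their labels, with 98.3, 95.3 and 96.6 CPM in those labelled WT IR and 20642, 20924 and 20912 CPM in those labelled cKO IR. These 6 libraries are therefore named by label only, and comparisons between peak classes that use them are also given for the 3 cKO Ctrl libraries alone. The IR effect on peaks cannot be had without them. Ythdf2 counts were higher in cKO Ctrl Inputs, at 175, 186 and 176 CPM, than in WT Ctrl Inputs, at 95.7, 96.5 and 98.0 CPM (log2 difference 0.88, SE 0.04, edgeR adjusted p 6.0e-13). Counts of a whole gene do not tell apart exons that Cre removes from those it leaves, so they do not test the knockout. Lyz2 followed the labels in IR Inputs too, at 20891, 19665 and 20270 CPM in WT IR and 419, 409 and 420 CPM in cKO IR. Directions by genotype in Input rest on the labels and on this Lyz2 split.

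Sequences around a motif are shown for coding peaks that the results below return to, because they show both kinds of peak: those with GGACT beside the summit and those of highest fold, most of which had none. Each is 25 bases of spliced GENCODE transcript sequence (GRCm38), 5′ to 3′ on the strand of the gene, with the motif nearest the summit in capitals. In the first set the capitals mark GGACT.
Plet1 exon 1, chr9:50494586-50494610, plus strand: tccacacctgGGACTgttcctgtgc
Ythdf2 exon 4, chr4:132204403-132204427, minus strand: aatctgctgtGGACTacaacacatg
Metrnl exon 2, chr11:121707885-121707909, plus strand: agcctttcagGGACTcctctggagc
Actb exon 3, chr5:142905436-142905460, minus strand: tgggtcagaaGGACTcctatgtggg
In the second set the capitals mark another DRACH sequence, and the Cish line, centred on its summit, has none.
Cish exon 2, chr9:107299960-107299984, plus strand: gcggcctctgtgggcccagtccctg
Clspn exon 10, chr4:126573170-126573194, plus strand: ggaggcaatgAAACTccgaaggctt
Jaml exon 4, chr9:45086864-45086888, plus strand: ctgccaggctTGACCgtttcctccc
Eps8 exon 14, chr6:137512259-137512283, minus strand: aggtggccccGAACTggccagttcg
Aunip exon 3, chr4:134523254-134523278, plus strand: cttgtttgctGGACCaaagagaggc
In Plet1 the A of GGACT lay 20 bases before the summit, in Ythdf2 10 before, in Metrnl 27 before and in Actb 13 after it.

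GGACT was found within 50 bases of the summit in 493 coding peaks (11.6%), at a median distance of 24 bases. Of windows of the same length at eligible coding bases of the same genes, taken every 10 bases (n = 407765), 10.4% held it, and of those of all protein-coding genes 10.7%. DRACH, a looser motif, was present in 89.4% of the coding peak windows and in 88.6% of the windows of the same genes. The coding peaks thus held either motif little more often than the coding sequence they sit in, a description without a test. By strength the share with GGACT was 12.5% for peaks with a fold under 2 in their weakest library, 10.9% from 2 to under 4, 12.1% from 4 to under 10, and 13.3% of the 128 peaks at 10 or more. Where a GGACT lay in the coding frame, its A was the second base of a codon (GAC, aspartate) in 52.4% of 487 peak windows and in 54.1% of all GGACT in eligible coding sequence of the same genes, as it is in the Ythdf2, Metrnl and Actb windows above.

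Windows of near-stop peaks held GGACT more often. In the 9 IP libraries that did not choose the peaks, each classified by its own summits, 10.9% of coding windows on average held it against 14.1% near a stop codon, a difference of −3.16 percentage points (SD 0.50, n = 9 libraries). Coding windows were lower in 9 of 9 libraries (exact two-sided sign-flip permutation test, p = 0.0039, the smallest it can give, adjusted over 3 class comparisons 0.0039). Against 5′ UTR windows the difference was −2.56 points and against distal 3′ UTR windows −0.66 points, again lower in 9 of 9 libraries (exact permutation, adjusted p = 0.0039 for both). The libraries share most of their peaks, so they are not 9 separate samplings of sites. In the 3 cKO Ctrl libraries alone the differences were −2.97 points from near-stop, −2.11 from 5′ UTR and −0.64 from distal 3′ UTR windows, where 3 libraries allow no exact p below 0.25. The size of the near-stop difference moved with the window, from −1.99 points within 25 bases of the summit to −4.75 within 100 bases.

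Coding summits followed the layout of their genes. The median coding length was 1827 bases over the coding peaks, where a gene with several peaks counts several times. It was 1164 over all protein-coding genes with eligible bases, each counted once, so these medians are weighted differently. Of the summits, 45.9% lay in exons of at least 400 bases, against 45.1% of eligible coding bases in the same genes and 34.5% in all genes. Exons of 1000 bases or more held 27.6% of the summits and 32.0% of the eligible bases of the same genes. Summits were within 50 bases of an exon junction in 41.6% of cases against 40.2% of bases, and within 100 bases in 53.4% against 58.6%. Cut into 3 equal parts from start to stop codon, the coding sequence held 40.9%, 36.6% and 22.5% of the summits and 37.9%, 36% and 26.1% of the eligible bases. These shares are descriptions without a test, because several peaks can lie in one gene.

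**Figure D1:**
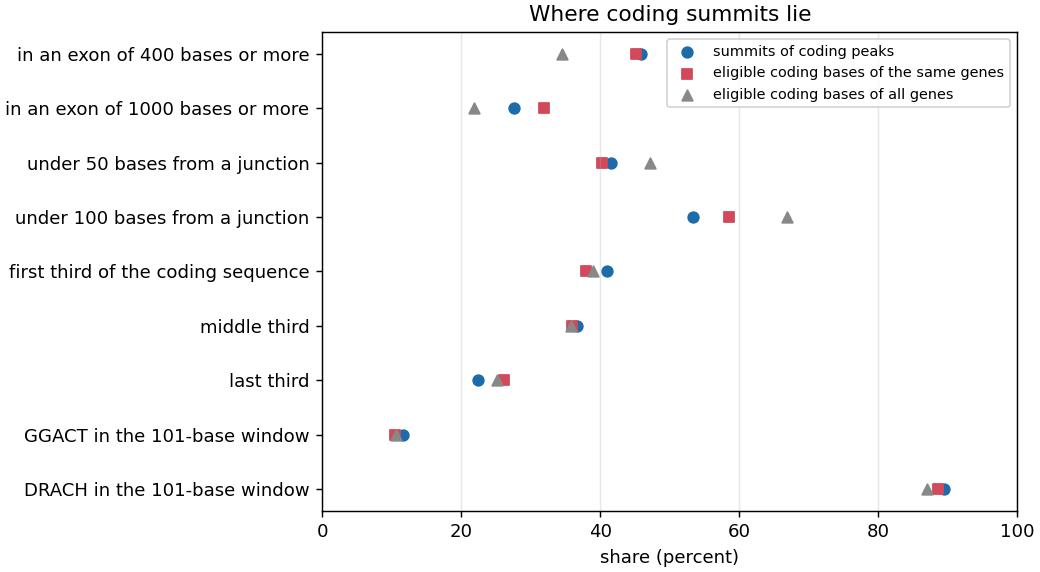
Share in percent of coding peak summits (circles), of eligible coding bases of the same genes (squares) and of all genes (triangles) with each feature named on the vertical axis. The circles lie close to the squares for motif content, with 11.6% against 10.4% for GGACT, and farthest from them for closeness to a junction under 100 bases, with 53.4% against 58.6%.

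Exon type changed with peak strength. The median exon under a summit was 496 bases long for peaks with a weakest-library fold under 2, 344 from 2 to under 4, 255 from 4 to under 10, and 215 at 10 or more. The share of summits within 50 bases of a junction was 29.1%, 42.7%, 48.0% and 58.6% in these bands. Of the peaks at 10 or more, 30.5% lay in exons of at least 400 bases, near the 34.5% of eligible coding bases of all genes. Their 58.6% within 50 bases of a junction stood above the 47.1% of those bases. The bands hold different genes, and exon lengths of the genes in each band were not taken. A preference of strong peaks for short exons was therefore not tested. Fold chose the summit, and these values carry no test.

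The fold in the weakest WT Ctrl library ranged from 1.18 to 54.5 over the coding peaks, with a median of 2.85 and quartiles of 2.09 and 4.19. Near-stop peaks had a median of 2.56, distal 3′ UTR peaks 2.70 and 5′ UTR peaks 3.34. At least 4-fold enrichment in all 3 libraries was reached by 1165 coding peaks (27.4%) and 10-fold by 128 (3.01%). The 3 libraries ordered the coding peaks alike (Spearman 0.85 for each pair, over 4249 peaks that were chosen in these libraries), and the median SD of the log2 fold was 0.19.

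The 10 coding peaks of highest weakest-library fold lay in 7 genes. Plet1, a placenta-expressed surface protein also used as an epithelial progenitor marker, carried 3 of them. Its exon 2 peak (205-base exon, summit at chr9:50499095) had folds of 58.2, 54.5 and 56.7 in WT Ctrl and of 51.6, 52.3 and 52.6 in cKO Ctrl. The libraries labelled WT IR gave 52.0, 55.6 and 52.4, and those labelled cKO IR 53.4, 55.1 and 55.3, so the 12 libraries lay close together. Its exon 4 peak scattered more, with 36.3, 42.4 and 59.0 in WT Ctrl and 52.5, 54.1 and 24.2 in cKO Ctrl. It was lower in the libraries labelled WT IR, at 22, 23.4 and 24.4, and in those labelled cKO IR, at 15.4, 21.3 and 19, which overlap only the lowest cKO Ctrl value. Cish, a suppressor of cytokine signalling through STAT5, followed with 31.1, 30.2 and 31.7 in WT Ctrl, and its cKO Ctrl values were 27.5, 26.8 and 30.4.

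Clspn encodes claspin, which the replication checkpoint needs to activate CHK1. Its exon 10 peak had folds of 25, 25.1 and 25.1 in WT Ctrl and of 24, 27.1 and 22.2 in cKO Ctrl. In the libraries labelled WT IR it had 18.1, 18.6 and 18, and in those labelled cKO IR 16.5, 14.2 and 15, all below the Ctrl libraries. Another Clspn peak, in exon 3, went the other way, with 13.3, 12.3 and 11.6 in WT Ctrl, 9.79, 15.5 and 11.1 in cKO Ctrl, 23.4, 23.2 and 21.3 in those labelled WT IR and 16.4, 16.3 and 19 in those labelled cKO IR. Aunip, which encodes an Aurora A-binding protein, had 20.0, 21.0 and 20.5 in WT Ctrl and 10.5 to 11.8 in the 6 libraries labelled IR. Ccdc80, a secreted matrix protein, carried 2 of the 10 peaks, Jaml, a junctional adhesion molecule of leukocytes, and Eps8, an actin regulator, 1 each, and all 10 peaks were called in all 12 IP libraries.

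**Figure D2:**
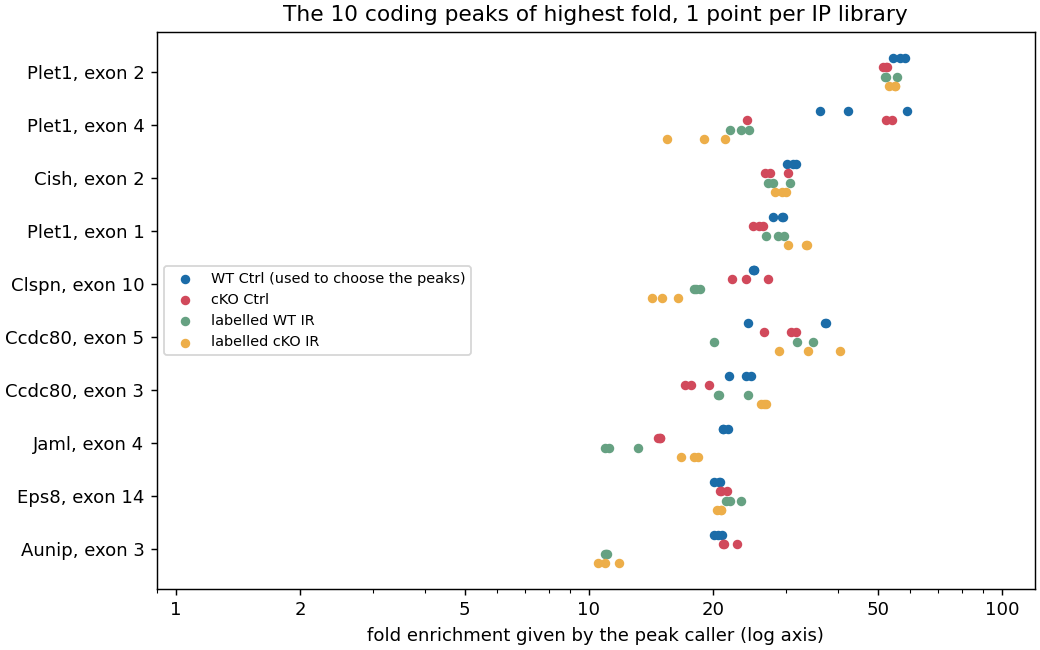
Fold enrichment as given by the peak caller (horizontal, log axis) for the 10 coding peaks of highest fold in their weakest WT Ctrl library (vertical, gene and exon), with 1 point per IP library coloured by label. Plet1 exon 2 lies between 51.6 and 58.2 in all 12 libraries, while Plet1 exon 4, Clspn and Aunip lie lower in most or all of the 6 libraries labelled IR.

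Several of these genes were scarce in Input, although Clspn (19.2, 19.2 and 19.7 CPM in WT Ctrl) and Eps8 (15.3, 12.5 and 14.8 CPM) were less so. Plet1 had 1.82, 1.86 and 1.59 CPM in WT Ctrl Inputs against 731, 713 and 740 CPM in the IP libraries. Cish had 4.82, 3.45 and 2.90 CPM in those Inputs and 292, 289 and 293 CPM in IP, and Ccdc80 had 8.95, 7.63 and 9.12 CPM in Input and 616, 617 and 595 CPM in IP. Counts over the whole gene were thus many times higher in IP than in Input for these 3 genes. These counts include the reads in the peaks, and reads outside the peaks were not counted apart. The cKO Ctrl libraries, which did not choose the peaks, gave the same picture, with log2 IP over Input of 8.02 for Plet1 (SE 0.06, edgeR adjusted p 2.2e-40) and 5.08 for Ccdc80 (SE 0.07, edgeR adjusted p 1.6e-34). The sources do not say if matching Input and IP libraries share RNA, and the part of low Input counts in these folds was not tested.

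Over all coding peaks, fold rose with the ratio of the whole gene. The Spearman correlation between the weakest WT Ctrl fold of a peak and the log2 IP over Input of its gene in cKO Ctrl was 0.69 over 4243 peaks, which share genes and libraries, so it is given without a p. A gene's IP count includes the reads of its peaks, and fold and ratio both set IP against Input. They are therefore not independent measures, and the part this has in the correlation was not tested. The median log2 IP over Input of the gene in cKO Ctrl was 0.44 for peaks with a fold under 2, 0.95 from 2 to under 4, 1.88 from 4 to under 10 and 3.25 at 10 or more. The median Input level of the gene in WT Ctrl fell over the same bands, from 96.1 to 35.8, 13.9 and 7.53 CPM. Actb (beta actin) was at the other end: its peak had folds of 1.80, 1.77 and 1.68, on a gene with 10189, 9956 and 10155 CPM in WT Ctrl Inputs and 5768, 5717 and 5835 CPM in IP.

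**Figure D3:**
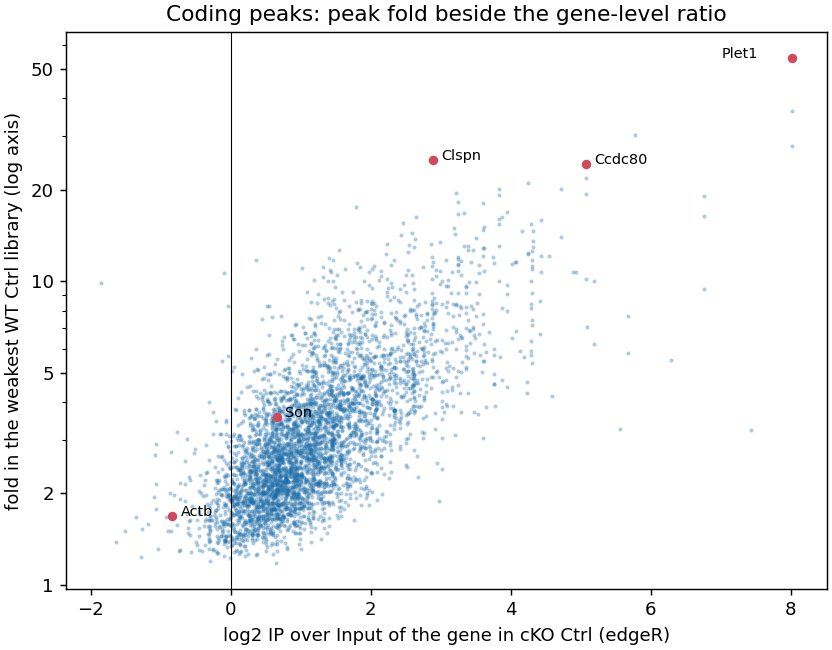
Each point is 1 coding peak. The horizontal axis is the log2 IP over Input of its gene in cKO Ctrl from the edgeR fit, the vertical axis (log) the fold in its weakest WT Ctrl library. Peaks of Plet1, with a gene-level value of 8.02, lie at the upper right and that of Actb at the lower left.

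Coding peaks often came several to a gene. Of the 2521 genes, 1541 carried 1 coding peak, 586 carried 2 and 394 carried 3 or more, and these 394 held 1536 peaks. In 321 genes the coding peaks lay on 3 or more different exons. Among the 394 genes the log2 fold had an SD of 0.78 over all their peaks and 0.46 within a gene. Genes with more coding peaks had a higher gene-level IP over Input in cKO Ctrl, with medians of 0.85 for 1 peak, 0.97 for 2, 1.13 for 3 or 4 and 1.34 for 5 or more on the log2 scale. The gene-level IP counts include the reads of these peaks. Their Input level in WT Ctrl was also higher, with medians of 25.9, 34, 37.2 and 48.7 CPM.

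Cenpe had the most. It encodes CENP-E, the kinesin that moves chromosomes at the kinetochore, and its 17 coding peaks lay on 17 of 46 exons, with weakest-library folds of 2.78 to 13.0. Between 13 and 17 of them were found again in each of the 9 other IP libraries. Cenpf, a kinetochore protein, had 10 coding peaks with folds of 5.15 to 9.59, and Clspn had 10 with folds of 4.83 to 25. Gon4l, a nuclear protein, also had 10, at 1.70 to 5.96. Son, a splicing factor, had 9 coding peaks at 1.36 to 3.58 on only 2 exons, most of them in an exon of 5970 bases.

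Of these 5 genes, Cenpe, Cenpf and Clspn were lower in Input after irradiation in both genotypes. Cenpe had 46.8, 44.9 and 46.7 CPM in WT Ctrl Inputs and 14.2, 17.1 and 17.0 in WT IR (log2 change −1.49, SE 0.06, edgeR adjusted p 4.6e-13). In cKO it had 39.8, 37.2 and 36.6 CPM in Ctrl and 12, 11.9 and 11.2 in IR (−1.71, SE 0.07, edgeR adjusted p 1.1e-13). Cenpf changed by −1.86 in WT and −1.77 in cKO, and Clspn by −1.58 and −1.40 (log2, edgeR adjusted p at most 2.1e-12). Son was not called in WT (0.03, adjusted p 0.53) and fell by 0.23 in cKO (adjusted p 8.6e-07).

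Of the gene lists, those of the m6A pathway and of DNA damage had the highest shares of genes with a coding peak. For comparison, 2512 of 12822 protein-coding genes tested in Input (19.6%) carried one. Of the 26 genes on the list of DNA damage and replication checkpoint genes 15 had one, with 47 peaks in all. The list and the 15 also hold Mki67, a marker of proliferation. The strongest were Clspn, Brca1 (10.3, 12.6 and 9.75), which acts in homologous recombination, and Blm (10.2, 8.80 and 7.74), a RecQ helicase. The Brca1 summit lay in its 3315-base exon 10 and the Blm summit in a 716-base exon. Of the 15, 14 were higher in IP than Input in cKO Ctrl by the edgeR test and none lower, where 37.8% of all genes tested were higher and 36% lower. Genes with coding peaks were higher in 80.9% (coding peaks only) and 95.6% (also near a stop codon or in the 3′ UTR) of cases, so 14 of 15 is near the share of such genes in general. In Input 2 of the 15 rose and 9 fell after irradiation in WT, against 14.7% and 17% of all genes tested. In cKO 12 fell and none rose, against 23.8% and 21.8%. Of all 26 on the list, with or without a coding peak, 3 rose and 13 fell in WT, and 1 rose and 20 fell in cKO. Of genes with coding peaks only, 26.1% fell in WT and 36.8% in cKO. Of those with peaks also near a stop codon or in the 3′ UTR, 37.6% and 42.3% fell.

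Genes of the m6A pathway carried coding peaks in 9 of 15 cases, with 22 peaks. Virma, a scaffold of the methyltransferase complex, had 8, the strongest with folds of 6.42, 9.09 and 5.28. Rbm15, the RNA-binding adaptor of the complex, had 2, the stronger with 4.16, 3.97 and 5.56. The catalytic subunit Mettl3, its partner Mettl14 and the demethylase Alkbh5 had none. The demethylase Fto and the readers Ythdf1, Ythdf2, Ythdf3 and Ythdc1 had at least 1 each.

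Ythdf2 carried 2 coding peaks, both in its exon 4 (1584 bases). The first had folds of 3.45, 4.01 and 3.73 in WT Ctrl, was not called in cKO Ctrl replicate 1 and had 8.16 and 3.59 in the other 2 cKO Ctrl libraries. The second, with the GGACT shown above, had 2.57, 2.79 and 2.29 in WT Ctrl and 3.35, 3.41 and 2.65 in cKO Ctrl. No peak overlapped either in the 3 libraries labelled WT IR. In those labelled cKO IR 1 peak of 9.66, 15.1 and 12.2 overlapped both. These are the libraries whose Lyz2 level goes against the label.

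Of 20 inhibitors of NF-κB signalling 7 had a coding peak. Socs1, which restrains cytokine receptor signalling, had folds of 5.30, 5.36 and 8.29. Smpdl3b, a lipid-modifying enzyme that restrains Toll-like receptor signals, had 3 coding peaks, the strongest with 5.87, 4.41 and 8.25 in WT Ctrl and 3.56, 2.98 and 4.47 in cKO Ctrl. Cyld, a deubiquitinase, had 5.27, 4.64 and 3.78, and Metrnl, a secreted cytokine-like protein, had 2.55, 2.14 and 2.48. Tnfaip3, Nfkbia, Socs3 and Tnfaip8l2 had none. Of the 7, 3 were higher and none lower in cKO Ctrl than WT Ctrl Inputs, against 8.05% and 7.61% of all genes tested. Over the whole list of 20, with or without a coding peak, 6 were higher and none lower. This list holds genes the study singled out on these samples, so their direction is not independent evidence. Of 14 NF-κB core genes Traf6 (4.36, 6.37 and 4.68) and Tab2 (3.25, 3.47 and 3.74) had coding peaks, both encoding adaptors upstream of the kinase TAK1.

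Receptor lists are set beside the 19.6% of all tested genes with a coding peak, and no difference was tested. Of 12 Toll-like receptors Tlr4 (3.93, 2.27 and 2.76) and Tlr2 (2.08, 2.13 and 2.17) had a coding peak, of 16 chemoattractant receptors P2ry14 (3.35, 3.15 and 3.05) and P2ry6 (2.01, 2.09 and 2.61), and of 17 other surface receptors only Tgfbr2, with 2 peaks. Signalling-induced and lineage transcription factors had one in 11 of 33, led by Egr1 (9.45, 8.93 and 9.87), Klf4 (11.7, 8.54 and 8.0) and Irf4 (7.44, 7.23 and 8.18). Chromatin regulators had one in 13 of 34, led by the methyltransferases Nsd2 (5.48, 5.93 and 6.11) and Nsd3 (3.85, 3.54 and 3.35) and the remodeller Chd7 (4.05, 5.38 and 6.38). All 13 fell in Input after irradiation in cKO, as did 32 of all 34 on the list, with or without a coding peak, against 23.8% of all genes tested. In WT 4 of the 13 rose and 2 fell, against 14.7% and 17%. Of 16 giant and cytoskeletal genes only Sptbn1, Actb and Lcp1 had one. C2H2 zinc finger genes named Zfp with a number had one in 108 of 365, with 163 peaks, led by Zfp7 (12.9, 9.66 and 14.1), Zfp608 (8.48, 12.7 and 11.3) and Zfp472 (12.6, 15.3 and 7.68), and 105 of the 108 were higher in IP than Input in cKO Ctrl, near the 80.9 to 95.6% of genes with coding peaks in general.

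Coding peaks were mostly found again in other libraries. A peak overlapped 85.3%, 89.2% and 87.1% of them in the 3 cKO Ctrl libraries, 79.2%, 86.1% and 83.3% in those labelled WT IR, and 75.1%, 75.4% and 75.2% in those labelled cKO IR. All 9 libraries had 2183 of the coding peaks (51.4%), and 41 were in none of the 9. All 3 cKO Ctrl libraries had 3286 (77.3%), and 196 were in none of these 3.

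The difference from near-stop peaks had opposite signs in the cKO Ctrl and the IR libraries. In cKO Ctrl the coding share minus the near-stop share was −2.14 to −1.62 percentage points, lower in 3 of 3 libraries. In the 6 libraries labelled IR they were found more often in 6 of 6, by 1.02 to 9.40 points. Over the 9 libraries the mean difference was 2.75 points (SD 4.34, exact two-sided sign-flip permutation, p = 0.11, adjusted over 3 class comparisons 0.16). Without the IR libraries it was −1.94 points (3 libraries, exact permutation p = 0.25, the smallest possible). A comparison added after these values were seen set the IR libraries against the cKO Ctrl libraries: the coding minus near-stop difference was 7.04 points higher in IR (exact permutation over 84 arrangements, p = 0.024, adjusted over 3 classes 0.071). Against 5′ UTR peaks coding peaks were found more often in 9 of 9 libraries, by 5.13 points on average (exact permutation, adjusted p = 0.012), and against distal 3′ UTR peaks the difference was 0.60 points (exact permutation, adjusted p = 0.46). In the 3 cKO Ctrl libraries alone these differences were 4.73 and −0.066 points.

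Peak strength differed between the classes, so the shares were also taken within fold bands. For peaks with a weakest-library fold under 2, 69.7% of coding and 56.7% of near-stop peaks were found again in the libraries labelled cKO IR, and 81.0% against 84.6% in cKO Ctrl. From 2 to under 4, the shares were 76.5% and 69.3% in those labelled cKO IR and 87.3% and 90.2% in cKO Ctrl. At a fold of 4 or more, the shares were 77.1% and 77.0% in those labelled cKO IR and 91.7% and 92.4% in cKO Ctrl. In the libraries labelled WT IR they were 81.0% and 76.4% under 2, 82.9% and 81.8% from 2 to under 4, and 84.0% and 82.1% at 4 or more. Libraries labelled cKO IR had the fewest peaks, 13470 to 14041, while those labelled WT IR had 14870 to 17442 and the Ctrl libraries 15503 to 17608. The part of peak number in this difference was not tested.

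**Figure D4:**
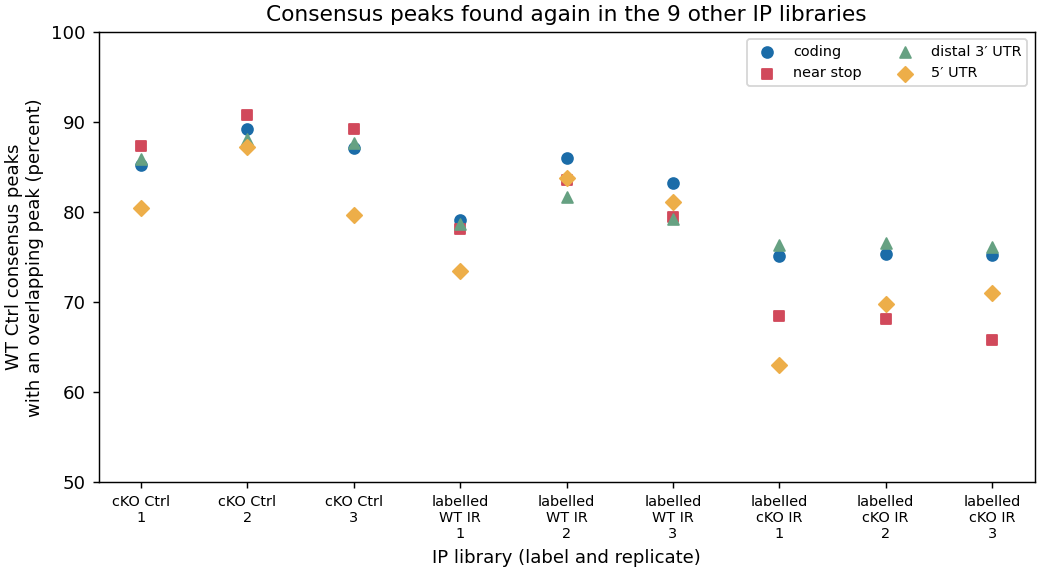
Share in percent (vertical, from 50) of WT Ctrl consensus peaks of 4 classes that overlap a peak in each of the 9 IP libraries that did not choose them (horizontal). Coding peaks (circles) lie under near-stop peaks (squares) in the 3 cKO Ctrl libraries and above them in the 6 libraries labelled IR, by up to 9.40 points.

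The coding share of a library's own peaks was higher after irradiation, while the number of coding peaks was not: it was 5248 to 5974 in the 6 Ctrl libraries and 5036 to 6430 in the 6 labelled IR. Coding summits made up 34.3%, 33.8% and 33.8% of the peaks in WT Ctrl, 33.9%, 34.8% and 33.8% in cKO Ctrl, 35.8%, 36.9% and 36.6% in those labelled WT IR, and 37.8%, 37.3% and 37.4% in those labelled cKO IR. No IR library overlapped a Ctrl library. The difference of IR minus Ctrl was 2.89 percentage points, 2.43 within the WT label and 3.35 within the cKO label (exact two-sided permutation within genotype, 400 arrangements, p = 0.005, the smallest it can give, adjusted over 4 classes 0.0067). An exchange of the genotype labels among the IR libraries leaves the 2.89 as it is. The near-stop share fell by 1.73 points and the distal 3′ UTR share rose by 1.56 points (exact permutation, adjusted p = 0.0067 for both), while the 5′ UTR share differed by 0.011 points (exact permutation, adjusted p = 0.95). The intron share, which was not tested, was 15.5 to 16.6% in Ctrl and 13.2 to 15.9% in the libraries labelled IR. Among the 10000 peaks of highest −log10 q in each library, which sets all libraries to one number of peaks, the coding difference was 3.02 points.

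**Figure D5:**
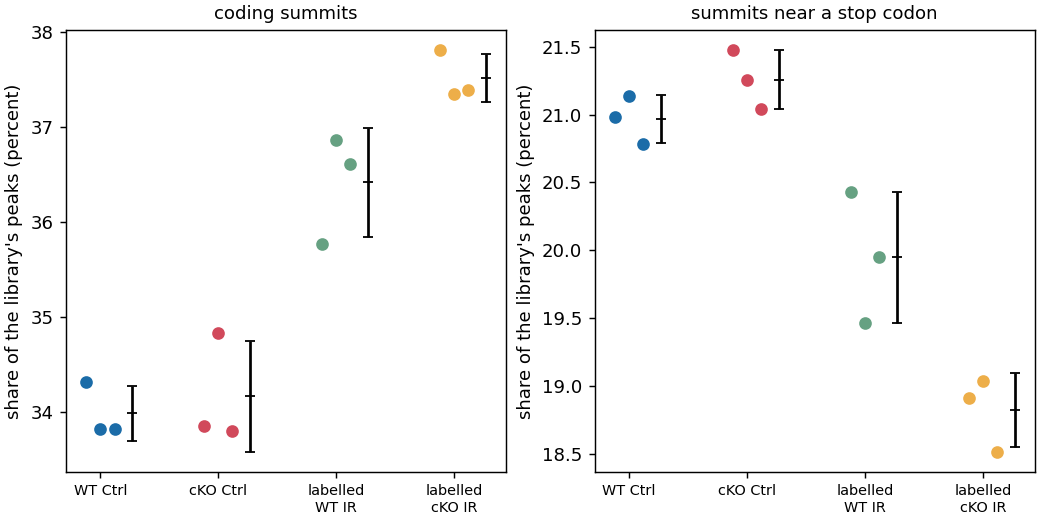
Share in percent of each IP library's peaks whose own summit is coding (left) or near a stop codon (right), by label, with 1 point per library and the mean ± SD (n = 3) beside them. The 6 libraries labelled IR lie at 35.8 to 37.8% coding, above all 6 Ctrl libraries at 33.8 to 34.8%. The axes do not start at 0.

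Peak folds were compared between cKO Ctrl and WT Ctrl for peaks called in all 6 Ctrl IP libraries, where 5 of 9248 peaks of any class were called (0.0541%). Of the coding peaks 3286 could be tested and 1 was called, and those that a cKO Ctrl library lacked could not be tested. The called peak lay in exon 11 of Sptbn1, a spectrin of the membrane skeleton, at chr11:30142279. Its folds were 2.01, 1.64 and 1.78 in WT Ctrl and 5.52, 4.64 and 4.19 in cKO Ctrl, so the groups did not overlap (log2 difference 1.47, SE 0.15, limma adjusted p 0.048). The call was lost without centring, with a replicate block and without any one of the 6 libraries, where 0 coding peaks were called. At an unadjusted p under 0.05, 364 of the 3286 coding peaks and 1022 of all 9248 peaks passed the limma test, and the WT Ctrl libraries had chosen the peaks.

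For RNA levels, genes were split by where their consensus peaks lay. Coding-only genes (1074) had a coding peak and no peak near a stop codon or in a distal 3′ UTR, 1446 genes had both kinds, and 1801 had peaks near a stop codon or in the distal 3′ UTR only. A peak near a stop codon could itself have its summit in coding sequence. Median Input levels in WT Ctrl were 28.6, 30.6 and 24.6 CPM in these sets and 2.20 CPM in genes with neither, so that genes with peaks also gave the tests more counts. Of the coding-only genes 1069 passed the count filter in Inputs. In cKO Ctrl, IP exceeded Input for 867 of 1072 coding-only genes tested and was lower for 109, with a median log2 of 0.66 (edgeR). Over all 17373 genes the calls were 73.7%, with 37.8% higher and 36% lower. Genes with both kinds of peak had a median of 1.08 and genes with near-stop or 3′ UTR peaks only 0.72. C1qb, a complement subunit, stood lowest of the coding-only genes by the naming rule, with 502, 489 and 532 CPM in cKO Ctrl Input and 184, 203 and 196 in IP, and Il4i1, an amino acid oxidase, followed with a log2 IP over Input of −1.51 (SE 0.03, edgeR adjusted p 4.7e-28).

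After irradiation in cKO, 219 of 1069 coding-only genes rose and 393 fell in Input, which is 20.5% and 36.8%. Over all 16090 genes 45.6% were called, 21.8% higher and 23.8% lower. Of genes with both kinds of peak 22.8% rose and 42.3% fell, and of those with near-stop or 3′ UTR peaks only 34.7% and 25.2%. The median log2 change was −0.06 in coding-only genes, 0.05 in genes with near-stop or 3′ UTR peaks only and 0.01 over all genes. The largest falls by the naming rule were in mitotic genes: Aspm, a spindle pole protein with 7 coding peaks, had 15.7, 16.1 and 15.3 CPM in cKO Ctrl and 4.69, 4.25 and 4.30 in cKO IR (−1.84, SE 0.08, edgeR adjusted p 6.3e-13). Ckap2l, a spindle protein with 3 coding peaks, changed by −1.33, and Espl1, the separase that splits sister chromatids, with 5 coding peaks, by −1.19. The largest rises were in Fgl2 (0.76), Mrpl14 (0.75) and Socs1 (0.74), and Socs1 had 9.59, 7.67 and 8.56 CPM in cKO Ctrl and 14.1, 13.8 and 15.8 in cKO IR.

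After irradiation in WT, 145 coding-only genes rose and 279 fell, which is 13.6% and 26.1%, against 31.7% called over all genes, 14.7% higher and 17% lower. The other genes with peaks also fell more often than they rose. With both kinds of peak 11.4% rose and 37.6% fell, and with near-stop or 3′ UTR peaks only 9.45% and 27.6%. Kif22, a chromosome-moving kinesin with 5 coding peaks, had 10.9, 13.8 and 11.4 CPM in WT Ctrl and 3.12, 3.79 and 3.28 in WT IR (−1.79, SE 0.11, edgeR adjusted p 1.2e-10). Aspm fell by 1.74 and Nfe2, a transcription factor of megakaryocytes and erythroid cells, by 1.70 on the log2 scale. Flrt3 (0.73), Socs2 (0.69) and Fam198b (0.62) rose most by the naming rule. The neutrophil marker sum fell alongside in WT, from 1575 to 335 CPM.

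Between genotypes without irradiation, 140 coding-only genes were higher and 77 lower in cKO Input, which is 13.1% and 7.20%, against 15.7% called over all genes, 8.05% higher and 7.61% lower. The shares were 16.4% and 7.83% in genes with both kinds of peak. They were 12.5% and 4.90% in genes with near-stop or 3′ UTR peaks only. Ifi47 and Irgm2, interferon-induced GTPases, were higher by 1.18 (SE 0.09) and 0.86 (SE 0.08). Ifi47 had 4.49, 4.67 and 4.81 CPM in WT Ctrl and 10.5, 10.4 and 11.0 in cKO Ctrl (edgeR adjusted p 4.9e-09). Wnt6, a Wnt ligand, was higher by 0.91, and Ccdc88c, Nfe2 and Gfod1 were lower by 0.78, 0.73 and 0.64. Which Inputs served as control for the peaks was not stated. Without cKO Ctrl Input replicate 2 the calls numbered 144 in place of 217. If WT Ctrl Inputs were that control, comparisons with them are not independent of the choice of peaks, since a low Input favours a peak.

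After irradiation, 330 coding-only genes were higher and 285 lower in cKO than in WT Inputs, which is 30.9% and 26.7%, against 47.7% called over all genes, 23.9% higher and 23.8% lower. The other genes with peaks were higher more often. Those with both kinds were higher in 39.6% and lower in 21.1%, and those with near-stop or 3′ UTR peaks only in 48.6% and 13.8%. Isg15, an interferon-induced ubiquitin-like protein with 1 coding peak, had 2.11, 1.47 and 2.09 CPM in WT IR and 13.6, 14.2 and 14.4 in cKO IR (2.84, SE 0.12, edgeR adjusted p 2.3e-13). Ccl2, the monocyte chemokine, was higher by 2.13 (SE 0.10) and Ifi47 by 1.68 (SE 0.09). Soga1 and Spen, a transcriptional corepressor, were lower by 0.79 and 0.78, and Ccdc88c by 0.77. The IR response itself differed between the genotypes for 391 coding-only genes, larger in cKO for 171 and smaller for 220 in signed log2 change (36.6% of 1069), against 30.2% over all genes, 15% and 15.2% by direction. It was larger in cKO for 23.1% and smaller for 17.0% of genes with both kinds of peak. With near-stop or 3′ UTR peaks only, the shares were 33.4% and 10.6%. This contrast of responses was added after the other contrasts had been seen.

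The difference of IP over Input between cKO Ctrl and WT Ctrl uses the libraries that chose the peaks and is a description only. It was higher in cKO for 110 coding-only genes and lower for 228, against 22.6% called over all genes, 10.1% higher and 12.5% lower. Hic1, a transcriptional repressor, was lowest, with 27, 26.2 and 30.0 CPM in WT Ctrl IP and 4.24, 5.28 and 4.63 in cKO Ctrl IP at 0.82 to 1.21 CPM in all 6 Inputs. Wnt6 followed, with 24, 24.4 and 25 CPM in WT IP and 15.7, 14.2 and 13.9 in cKO IP. Ear6, an eosinophil-associated ribonuclease with close paralogs whose reads may be split, and Matn2, a matrix protein, were highest at 1.46 and 1.43 on the log2 scale. For genes with both kinds of peak, IP over Input was higher in cKO in 10.9% and lower in 27.7%. For those with near-stop or 3′ UTR peaks only, the shares were 8.52% and 22.3%.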

How the data were processed

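MeRIP-seq was analysed from 12 Input and 12 m6A IP libraries, grouped by their labels. The authors trimmed reads (Trimmomatic 0.39 in the submitters' processing notes), aligned them to mm10 with HISAT and counted them with HTSeq; the deposited counts are raw. The authors called peaks for each library and strand with MACS2; the deposited lists give fold enrichment as a ratio, −log10 p-value, −log10 q-value (at least 2 here) and a score. Low fold and q values depend on the Input control, which was not stated.

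Here peaks were placed on GENCODE vM21 (GRCm38), with UTRs and stop codons of every transcript that has a coding sequence. GGACT and DRACH were searched on the sense strand of spliced transcripts, and a DRACH may contain a GGACT. Counts matched the annotation by gene identifier without version for 54409 of 54446 rows and for 2520 of 2521 member genes. HTSeq summary lines, 8.66 to 12.4% of reads, were left out. Genes reaching 10 counts in 3 or more libraries were tested with edgeR 4.0.16 (quasi-likelihood, TMM, adjusted p under 0.05) in R 4.3.3; SE is the log2 change divided by the square root of F. Log2 folds of peaks were tested with limma 3.58.1. DESeq2 1.42.0 was an alternative. Tests were checked on simulated data; in the 12-Input fit of 16090 genes, 99% of 2-fold changes were found. CPM is relative to unscaled gene counts.

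Named peaks were the 10 of highest weakest-library fold, the 5 genes with most coding peaks, the 3 strongest of each list, and, among called coding-only genes with non-overlapping replicates and at least 10 CPM in the higher group, the 3 largest changes each way in Input and 2 in IP over Input; other list members were named after their values were seen. Members and lists were chosen with earlier results of these data known.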

Additional observations from a re-analysis of the deposited data

Results flagged for a closer look

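The 6 IR IP libraries and the 3 cKO Ctrl libraries had opposite signs in how coding peaks compared with near-stop peaks. The coding minus near-stop share found again was 5.10 percentage points in the 6 IR IP libraries and −1.94 in the 3 cKO Ctrl libraries, a difference of 7.04 (exact permutation over 84 arrangements, p = 0.024, adjusted over 3 classes 0.071), so it does not pass the correction. It was set up after the values were seen, and the IR IP libraries carry the Lyz2 level of the other genotype.

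The coding-only genes named for a change after irradiation in Input were the 3 largest changes each way in each genotype, with Aspm in both. Of these genes, 5 had a response that differed between the genotypes by the interaction term of the edgeR fit. The others, Fam198b, Aspm, Fgl2, Socs1, Ckap2l and Espl1, were not called. Over all genes tested 30.2% were called. The genes were chosen for a large change in one genotype, which favours a smaller one in the other, and all 5 differ in that direction, so these values are descriptions and not independent tests. In cKO minus WT, the log2 response of Mrpl14, a mitochondrial ribosomal protein, differed by 0.77 (adjusted p 1.3e-05), that of Nfe2 by 0.58 (adjusted p 0.0018) and that of Kif22 by 0.54 (adjusted p 0.013). Flrt3 differed by −0.30 (adjusted p 0.0046) and Socs2 by −0.20 (adjusted p 0.024). The Mrpl14 response was a rise in cKO, from 14.4, 15.3 and 15.1 CPM to 25.8, 23.7 and 26.6, with 13.1, 12.5 and 12.3 CPM in WT Ctrl and 13.6, 10.9 and 12.1 in WT IR.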

How the results depend on the processing

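The number of coding peaks stayed within 3358 to 4902 over 7 settings of overlap, threshold, stop distance, summit and transcript type, and was 4703 to 4773 without 1 WT Ctrl replicate. The GGACT difference from near-stop windows kept its sign in all settings run and was −1.99 to −4.75 with a narrower or wider window; without the 6 IR IP libraries it was −2.97, where 3 libraries cannot pass the test, and without 1 library it was −3.24 to −3.02. The found-again difference was −1.94 without the IR IP libraries, a reversed sign, 0.43 for peaks of fold 4 or more (p = 0.34), and 5.10 in the IR IP libraries alone (exact permutation, p = 0.031, added later); without 1 library it was 1.92 to 3.36. The rise of the coding share lay at 2.78 to 3.06 without 1 library. Replicate numbers did not pair the samples: 27 correlations of same-numbered deviations from group means were −0.035 to 0.023, and 13 were higher than those with other numbers. With a replicate block the coding share rose by 2.89 (6 pairs), and coding-only calls in Input numbered 409 for irradiation in WT, 604 for irradiation in cKO, 185 for genotype without and 599 for genotype with irradiation, and 373 for the difference of responses. IP over Input gave 319 and 972. Coding peaks with a changed fold numbered 0 with the block, 0 without centring and 0 without any 1 library, against 1. Coding-only calls for cKO Ctrl vs WT Ctrl in Input were 333 with only the 6 Inputs of the contrast and 144 to 158 without 1 replicate, against 217; the lowest was without cKO Ctrl Input replicate 2, and the cause was not tested. Without 1 replicate the other Input counts were 348 to 541, 559 to 572 and 560 to 640, and those of IP over Input 297 to 329 and 955 to 964. The other settings run gave counts of called genes within 1.5 times the main count. Peaks absent from a library may lie under its detection limit.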
